A study of Mus musculus with 48 samples.

Results

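The 9 tubulin genes *Tuba1a*, *Tuba1b*, *Tuba1c*, *Tubb2a*, *Tubb2b*, *Tubb3*, *Tubb4b*, *Tubb5* and *Tubb6* were followed in mouse GL261 glioma, in the tumor cells and in the immune and vascular cells around them. They were chosen by symbol, as 3 alpha-tubulin and 6 beta-tubulin genes, and all 9 were found among the 20300 genes of the whole-tumor table and among the 14363 genes of the table of CD11b+ cells. Alpha- and beta-tubulin join into the dimer from which microtubules are built, and microtubules carry cargo, hold the shape of the cell and form the mitotic spindle. Each subunit is encoded by several genes, the isotypes, whose products differ mostly in their tails and in the tissues that use them. In the brain *Tuba1a*, *Tubb2a*, *Tubb2b* and *Tubb3* are known from neurons, above all growing ones, whereas *Tuba1b* and *Tubb5* are made in many kinds of dividing cell.

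GL261 is a mouse glioma line that grows in C57BL/6 mice with an intact immune system. Its cells received a short hairpin RNA against P-selectin (shSELP, genotype P-Selectin knockdown) or a hairpin without a target (shNC, genotype Negative control), and tumors were grown from them in C57BL/6 hosts, which the study's methods give as 6-week-old males with the cells placed in the striatum. P-selectin, the product of *Selp*, is an adhesion receptor of endothelium and platelets, and the hosts kept their own intact *Selp*. Single-cell RNA sequencing was done on 2 kinds of sample, whole-tumor mixes and CD11b+ cells.

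The whole-tumor mix was taken 16 days after inoculation by the labels and the CD11b+ cells 21 days after it, and the methods give day 17 for both. CD11b+ cells (myeloid cells), the remaining CD45+ cells (other leukocytes) and the rest were separated on magnetic beads and recombined in equal amounts, so that the share of a cell class in a mix was set partly by hand. There were 2 shNC and 2 shSELP mixes, and the values of the 4 libraries are always given in the order shNC 1, shNC 2, shSELP 1, shSELP 2. The CD11b+ cells gave 1 library per hairpin, and 7 of the 8 sequencing entries of the shSELP library carry a description that names the negative control, so its group was read from title, source and genotype. The methods describe cell suspensions pooled from 3 brains per group. Whether 2 libraries with the same hairpin hold cells of different mice or different pools is not stated in the labels, so the p-values below measure only the spread between these libraries.

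The mixes held 2289, 2297, 2293 and 2293 cells with 22945972, 22626413, 17398121 and 25589350 UMIs (unique molecular identifiers, each counted as 1 RNA molecule). Cells with at least 500 detected genes and at most 10% mitochondrial UMIs were kept, which left out 446 of 9172 cells. Each remaining cell went to the class, out of 14 marker lists without a tubulin gene, of which it showed the most markers, at least 3 and at least 2 more than of any other class. A tumor cell also had to show at least 2 of the 4 core markers *H19*, *Prph*, *Col9a2* and *Matn2*. Cells whose best list was that of astrocytes or neurons were not placed, so neither cell type is among the classes compared below. These rules placed 6906 cells. A cell was called cycling when over 0.6% of its UMIs came from 96 S-phase and G2/M genes (43 and 53 of them, *Tubb4b* left out), and the others are called non-cycling. Levels are UMIs per 1000000 UMIs (CPM) of the cells of a class summed per library, since the cells of a library are not replicates.

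The non-cycling tumor class had 187, 137, 32 and 26 cells and the cycling class had 90, 54, 14 and 21, with 21 cells of each within 0.1 of a percent of the threshold of 0.6%. The tumor cells were gated on the 16 tumor markers, so the level of these markers follows from the gate and is no check of the label. It summed to 3031, 2652, 2169 and 2732 CPM in the non-cycling cells, with *H19* or *Prph* as the most abundant marker in every library. The core-marker rule kept out 12, 15, 25 and 18 cells that had the tumor list as their best. Y-linked transcripts (*Ddx3y*, *Eif2s3y*, *Kdm5d*, *Uty*) stood at 0.332, 0.858, 19.7 and 26.8 CPM in non-cycling tumor cells and at 160.0, 136, 189 and 176 in macrophages of the same libraries, and 8 tumor cells had such a UMI. The cells that the core-marker rule kept out had 47.1, 50.1, 145 and 67.4 CPM of these 4 genes. Libraries of the mix shared at most 3 cell barcodes in any pair, and the CD11b+ libraries shared 3. Doublets were not removed in the main analysis, and Scrublet called 76 cells, 0.871%, in the mix.

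In the annotation of the mouse build named by the authors (mm10, here GRCm38), the 3 alpha genes lie together on chromosome 15, *Tuba1b* at chr15:98931425-98934565 and *Tuba1a* at chr15:98949837-98953703 on the minus strand and *Tuba1c* at chr15:99029891-99038110 on the plus strand. *Tubb2a* (chr13:34074274-34078007) and *Tubb2b* (chr13:34126748-34130466) are neighbors on the minus strand of chromosome 13. The others are scattered, with *Tubb3* at chr8:123411424-123422015, *Tubb4b* at chr2:25222160-25224702, *Tubb5* at chr17:35833921-35838306 and *Tubb6* at chr18:67390717-67402749. Each of the 9 transcripts has 4 exons. The reads come from the 3′ end, and of the 60-base windows in the last 500 transcript bases 55.3% for *Tuba1a*, 62.8% for *Tuba1b*, 67.3% for *Tuba1c*, 38.8% for *Tubb2a* and 29.3% for *Tubb4b* also occur in another tubulin gene or pseudogene, and 0 for the other 4. How many reads of these 5 genes were lost or misassigned was not tested, so levels are compared within a gene across cells, and shares between genes are shares of the counted UMIs.

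Tumor cells outside the cell cycle were set against the host cells of the same library to see which isotypes mark the tumor. All 9 genes together took 4457, 3923, 5287 and 3987 CPM in non-cycling tumor cells and 1005, 1094, 1082 and 1049 in macrophages, and every tumor library lay above every macrophage library. The mean excess in CPM was largest for *Tuba1a* (2129 against 62.6), followed by *Tubb3* (470.2 against 7.96), *Tubb2b* (408 against 5.75), *Tuba1b* (526 against 256), *Tubb5* (457 against 241) and *Tubb2a* (141 against 49.2). *Tuba1c* and *Tubb6* were lower in tumor cells than in macrophages. Differences were tested with edgeR's quasi-likelihood F test on UMIs summed per library and class, with library as a block, and a gene is called when its Benjamini-Hochberg adjusted p over all genes tested is below 0.05. Its log2 fold changes rest on TMM scaling, which sets the level of the middle genes equal. Scaled by total UMIs instead, the median gene was 0.82 higher on the log2 scale in tumor cells than in macrophages, 0.65 higher than in microglia, 0.42 higher than in T cells and -0.02 apart from endothelium (with TMM 0.04, 0.08, 0.05 and -0.07), so the log2 values below are relative to the middle gene while CPM are not.

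*Tuba1a*, the alpha isotype of growing neurons, stood at 2105, 1756, 2627 and 2028 CPM in non-cycling tumor cells. In macrophages it stood at 61.0, 72.8, 51.7 and 65.2, in microglia at 62.2, 87.6, 95.9 and 109.996 and in T cells at 153, 146, 129 and 145. The tumor libraries lay far above those of these 3 classes, with no overlap, and the log2 fold change was 4.26 (SE 0.19, adjusted p = 2.42e-13) against macrophages, higher in 4 of 4 libraries. Against microglia the log2 fold change was 4.02 (SE 0.22) and against T cells 3.49 (SE 0.17), each higher in 4 of 4 libraries and called. Endothelial cells held more of it, 669.7, 815, 791 and 803 CPM, and the tumor excess there was 1.44 (SE 0.19, adjusted p = 5.00e-06). Oligodendrocytes, of which 58 were non-cycling, had 1584, 3356 and 1807 CPM in the 3 libraries with at least 10 such cells, a range that overlapped the tumor cells.

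*Tuba1b*, an alpha isotype of most tissues, was more even. It stood at 440.1, 439, 666 and 558 CPM in non-cycling tumor cells, 241, 272, 242 and 268 in macrophages and 250.4, 315, 279 and 305 in microglia. The tumor libraries were above both, but the log2 fold change was 0.21 (SE 0.15) against macrophages and 0.29 (SE 0.18) against microglia, neither called, and with total UMIs the same comparisons gave 1.02 and 0.86, both called. T cells had 89.3, 131, 115 and 107 CPM, and the tumor excess over them was 1.85 (SE 0.15, adjusted p = 8.99e-11) in 4 of 4 libraries. *Tuba1c*, the least counted of the 3 alpha members in tumor cells, stood at 97.2, 88.8, 124 and 101 CPM there and at 163, 172, 219.6 and 190.2 in macrophages. The macrophage libraries were all above the tumor libraries, and the log2 fold change was -1.65 (SE 0.15, adjusted p = 7.66e-09), lower in 4 of 4 libraries and -0.85 with total UMIs, also called. Against microglia it was -0.92 (SE 0.18) and called, a call lost with total UMIs (-0.35).

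Of the 9 genes, 4 were called higher and 3 lower in tumor cells than in macrophages, where 68.6% of all genes tested were called, 34.4% higher and 34.2% lower. Against microglia 4 were higher and 2 lower (60.5% of genes called, 31.2% higher and 29.3% lower). Against T cells 8 were higher and 0 lower by edgeR (65.5%, 34.1% higher and 31.4% lower), and against endothelial cells 4 were higher and 1 lower (53.3%, 25.0% higher and 28.3% lower). With total UMIs in place of TMM the 9 genes gave 6 higher and 2 lower against macrophages, where 7017 genes were higher and 2280 lower in place of 4121 and 4097, and 6 and 0 against microglia, where 5475 were higher and 2110 lower in place of 3396 and 3183. Against T cells the 9 gave 8 and 0 and against endothelium 4 and 1, as with TMM. The weakest of the 8 was *Tuba1c*, with 0.36 (SE 0.16, adjusted p = 0.0469). Its call was lost with DESeq2 (0.33), without the filter on low counts, without the library block, with the stricter gate, the higher cycling threshold or no core markers, and without shNC library 1 (0.29), shNC library 2 (0.33) or shSELP library 1 (0.35). With most genes called in these contrasts, the counts say little, and the sizes below carry the description.

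*Tubb2b*, a beta isotype of migrating neurons, stood at 621, 346, 409.9 and 256 CPM in non-cycling tumor cells. It was nearly missing in macrophages, at 8.02, 7.72, 2.42 and 4.83 CPM, and low in T cells, at 9.22, 9.80, 5.15 and 9.004, and in microglia, at 16.5, 13.1, 15.7 and 19.3. The groups did not overlap, and the tumor excess was 5.27 (SE 0.23, adjusted p = 1.24e-13) over macrophages, 4.03 (SE 0.24) over microglia and 5.14 (SE 0.22) over T cells, each in 4 of 4 libraries. With cells thinned to 2000 UMIs the value against microglia was 3.28. *Tubb3*, the class III beta-tubulin used as a marker of neurons, was likewise far higher in tumor cells than in these host classes. It stood at 301, 565, 526 and 489 CPM in tumor cells and 5.29, 11.2, 3.74 and 11.6 in macrophages. In microglia it stood at 7.09, 8.56, 3.76 and 14.4 and in T cells at 7.49, 16.3, 8.75 and 18.01. Its excess was 5.06 (SE 0.22, adjusted p = 1.60e-13) over macrophages, 5.33 (SE 0.28) over microglia, 4.81 (SE 0.19) over T cells and 4.97 (SE 0.33) over endothelium, each in 4 of 4 libraries. Without shSELP library 1, which held 339 of the 458 endothelial cells, the value against endothelium was 4.37.

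Part of these low host levels could be read against free RNA, tumor RNA that enters droplets of other cells. *Prph*, an intermediate filament gene and a core marker of the tumor class, stood in host classes at 1.36% (macrophages), 1.57% (microglia), 2.17% (T cells) and 2.00% (endothelium) of its level in non-cycling tumor cells. If a tubulin reached macrophages in that ratio alone, *Tubb2b* would stand at 5.03 CPM, and the mean was 5.75. For *Tubb3* the ratio gave 6.68 CPM in macrophages against a mean of 7.96, and 10.46 in T cells against 12.6. In microglia *Tubb3* had a mean of 8.45 CPM against 7.40. The levels of both genes in macrophages and T cells, and of *Tubb3* in microglia, were thus near this background and are not read as expression, so the tumor excess over these cells is a ratio to that background. In endothelium the *Prph* ratio was 0%, 5.25%, 1.25% and 1.51% by library and gave 0, 29.7, 6.57 and 7.38 CPM of *Tubb3* against 39.98, 20.8, 8.38 and 17.2 counted, so how much of that level is background is not settled. *Tubb2b* in microglia, 16.2 CPM against 6.15, and *Tuba1a* in every host class lay above the level given by the *Prph* ratio. *Prph* is itself a gate gene. The gate selects tumor cells for it and keeps cells with many tumor markers out of the host classes, so the ratio can be too low. A level above it therefore does not separate expression from free tumor RNA.

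*Tubb2a*, another brain-rich beta isotype, stood at 109, 144, 185 and 125 CPM in tumor cells and 44.5, 53.2, 53.4 and 45.6 in macrophages. The tumor libraries lay above, and the excess was 0.69 (SE 0.14, adjusted p = 2.24e-04), in 4 of 4 libraries. Endothelial cells had as much as the tumor, 99.96, 135, 198 and 180.5 CPM, with overlapping ranges and an uncalled log2 fold change of -0.16 (SE 0.22). *Tubb5*, the class I beta-tubulin of most cells, stood at 624, 402, 512 and 289 CPM in tumor cells, 264, 261, 213 and 227 in macrophages and 314, 423, 296 and 338 in microglia. Its log2 fold change was 0.08 (SE 0.18) against macrophages, uncalled with TMM and called with total UMIs (0.89), and -0.18 (SE 0.21) against microglia, uncalled and turned to 0.39 with total UMIs.

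*Tubb4b*, the class IVb beta-tubulin found in most tissues and in cilia, showed how much the scaling decides. It stood at 99.2, 134, 185 and 107 CPM in tumor cells and 80.9, 109, 131 and 97.6 in macrophages, so that in CPM the tumor was higher in 4 of 4 libraries, with overlapping ranges. With TMM the log2 fold change was -0.48 (SE 0.14, adjusted p = 0.00644) and called lower, and it turned to 0.32 with total UMIs and to 0.11 without the core-marker rule, neither called. Against T cells it was -0.28 (SE 0.15), uncalled, and 0.10 with total UMIs. Endothelial cells had 339.9, 275, 329 and 367 CPM, above every tumor library, and there the log2 fold change was -1.33 (SE 0.21, adjusted p = 4.62e-05), lower in 4 of 4 libraries, and -0.68 without the core-marker rule. *Tubb6*, the class V beta-tubulin, stood at 60.03, 48.0, 51.2 and 32.8 CPM in tumor cells and 137, 134, 166 and 139 in macrophages. The ranges were far apart, with a log2 fold change of -2.28 (SE 0.17, adjusted p = 6.56e-10), lower in 4 of 4 libraries, and -1.51 with total UMIs. Against T cells, with 25.4, 20.1, 9.26 and 27.7 CPM, tumor cells were higher by 0.91 (SE 0.24, adjusted p = 0.00161) in 4 of 4 libraries. Against microglia the TMM value was -0.64 (SE 0.22), called lower although its CPM were higher in 2 and lower in 2 of 4 libraries, a call lost with total UMIs (-0.08) and without shSELP library 1 (-0.46).

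**Figure D1:**
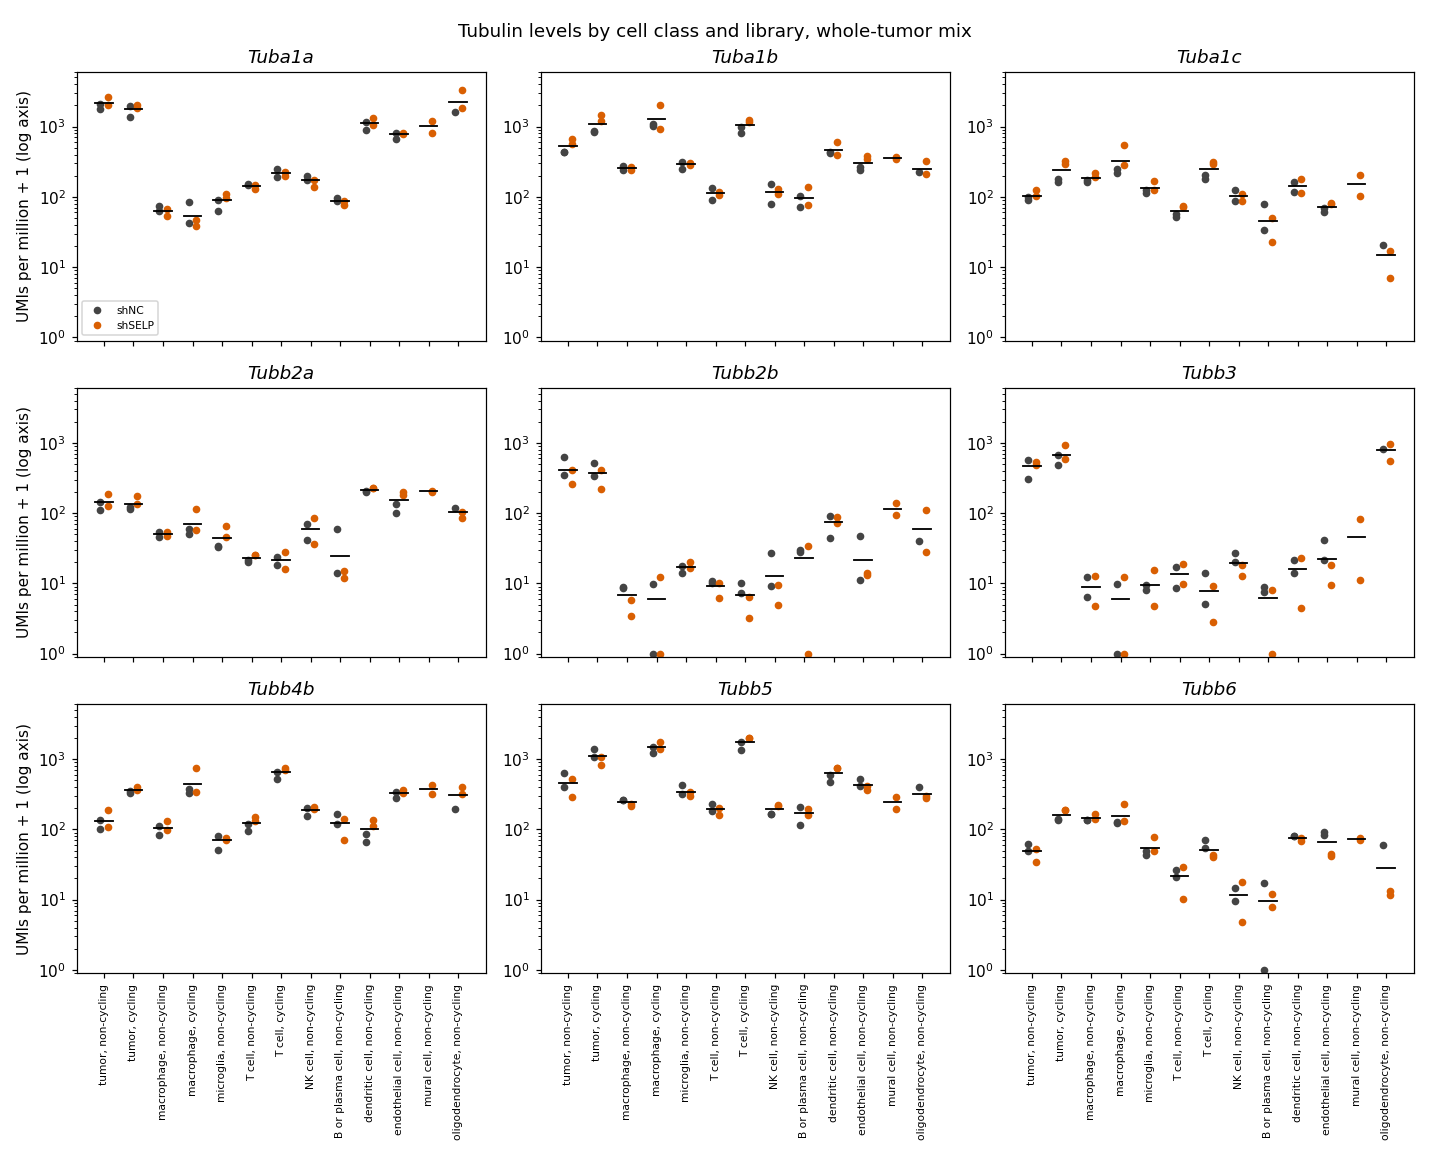
Level of each tubulin gene in CPM plus 1 (log axis) in 13 class and state sums of the whole-tumor mix, with 1 point per library (gray shNC, orange shSELP) and a line at the mean over libraries. *Tuba1a*, *Tubb2b* and *Tubb3* are high in both tumor states, with means of 2129, 408 and 470.2 CPM in non-cycling cells, while *Tuba1b* and *Tubb5* are high in the cycling states of tumor cells, macrophages and T cells.

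Ordered by mean over libraries, neighboring classes are named here as level when their means differ by no more than the larger of their SDs. For *Tuba1a* the order ran oligodendrocytes (2249 ± 965 CPM, SD, n = 3), non-cycling tumor cells (2129 ± 364, n = 4) and cycling tumor cells (1785 ± 304), these 3 level, then dendritic cells (1115 ± 182), mural cells (1006 ± 288, n = 2) and endothelium (769.7 ± 67.4), again level with their neighbors. Lymphocytes followed, from cycling T cells (215 ± 26.5) over NK cells (170.1 ± 26.6) to non-cycling T cells (143 ± 9.97), and microglia (88.9 ± 20.1), B or plasma cells (86.7 ± 8.36) and macrophages (62.6 ± 8.80 non-cycling, 51.5 ± 20.6 cycling, level) came last. *Tuba1b* was headed by the 3 cycling classes, macrophages (1267 ± 519), tumor cells (1082 ± 297) and T cells (1046 ± 197), which were level, and ended with NK, T and B or plasma cells at 116, 111 and 96.5 CPM, also level. *Tuba1c* had the same 3 cycling classes on top, at 323, 247 and 238 CPM, level with each other and the last of them with non-cycling macrophages (186 ± 24.9), and oligodendrocytes at the bottom (13.9 ± 7.01, n = 3).

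Among the beta genes, *Tubb2a* was highest in dendritic cells (214 ± 15.2 CPM) and mural cells (204 ± 4.39, n = 2), which were level, and lowest in B or plasma cells (23.9 ± 22.8) and, level with them, T cells, at 22.2 and 20.5 in the 2 states. *Tubb2b* was headed by the tumor states (408 ± 155 and 370.2 ± 124, level), then mural cells (114 ± 31.4) and dendritic cells (72.7 ± 21.2). *Tubb3* was highest in oligodendrocytes (781 ± 209, n = 3), level with cycling tumor cells (668 ± 198) and followed by non-cycling tumor cells (470.2 ± 117). All other ranked classes, which hold no neurons or astrocytes, had means of at most 45.1 CPM. *Tubb4b* led in cycling T cells (656 ± 94.6) and was lowest in microglia (68.8 ± 12.8). *Tubb5* ran from cycling T cells (1769 ± 293) and cycling macrophages (1477 ± 231), level, to cycling tumor cells (1090.4 ± 229.8) and dendritic cells (639 ± 137), and ended with T, NK and B or plasma cells at 194, 192 and 170.0, level. For *Tubb6* cycling tumor cells (162 ± 28.0) and both macrophage states (152 ± 49.1 cycling, 144 ± 14.7 non-cycling) were level on top, with NK cells (10.8 ± 5.78) and B or plasma cells (8.48 ± 6.78) last.

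Within each family the members took different shares of the UMIs counted for the 3 alpha or the 6 beta genes. Isotypes outside the 9 are not in these shares. Among them *Tuba4a* had means of 86.2 CPM in non-cycling macrophages and 67.2 in non-cycling T cells. In non-cycling tumor cells *Tuba1a* made up 77.2% of the UMIs of the 3 alpha genes, *Tuba1b* 19.03% and *Tuba1c* 3.74% (means of 4 libraries), and in cycling tumor cells 57.8%, 34.6% and 7.57%. In non-cycling macrophages the order was different, with 12.4%, 50.7% and 36.9%, and in cycling macrophages *Tuba1b* reached 76.0%. T cells went from 45.4%, 34.8% and 19.8% to 14.6%, 69.3% and 16.2%, so that *Tuba1b* was the main one of the 3 in cycling T cells but not in non-cycling ones. Of the UMIs of the 6 beta genes in non-cycling tumor cells *Tubb3* took 29.2%, *Tubb5* 27.1% and *Tubb2b* 24.2%. In cycling tumor cells *Tubb5* took 38.9%, *Tubb3* 24.0%, *Tubb2b* 13.4% and *Tubb4b* 13.1%. Cycling T cells counted mostly *Tubb5* (70.4%) and *Tubb4b* (26.2%), and non-cycling macrophages *Tubb5* (43.7%), *Tubb6* (26.0%) and *Tubb4b* (18.9%).

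Dividing cells need tubulin for the spindle, and cycling and non-cycling cells of the same class and library were compared for each gene. In tumor cells the sum of the 9 genes was 5949, 5013, 6344 and 6262 CPM when cycling against 4457, 3923, 5287 and 3987 when not, higher in 4 of 4 libraries. The genes called were *Tuba1b*, *Tuba1c*, *Tubb4b*, *Tubb5* and *Tubb6*, and *Tuba1a*, *Tubb2a*, *Tubb2b* and *Tubb3* were not. By the test described above with library as a block, 5 of 9 tubulin genes were called higher and 0 lower in cycling tumor cells, where 9.07% of all 7927 genes tested were called, 5.82% higher and 3.25% lower.

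*Tuba1b* went from 440.1, 439, 666 and 558 CPM in non-cycling to 859, 823, 1451 and 1194 in cycling tumor cells. The ranges did not overlap, and it rose by 1.02 (SE 0.15, adjusted p = 1.18e-04) in 4 of 4 libraries. *Tuba1c* went from 97.2, 88.8, 124 and 101 to 161, 175, 325 and 291 CPM, without overlap, a rise of 1.09 (SE 0.19, adjusted p = 7.67e-04) in 4 of 4. *Tuba1a*, in contrast, stood at 1964, 1346, 2011 and 1820.0 CPM in cycling cells, below its non-cycling level in each library, with a log2 fold change of -0.25 (SE 0.13, adjusted p = 0.276) that was not called. Of the beta genes *Tubb4b* went from 99.2, 134, 185 and 107 to 328, 356, 398 and 363 CPM and rose by 1.49 (SE 0.17, adjusted p = 1.22e-05) in 4 of 4 libraries, with the cycling values close together and the non-cycling ones all lower. *Tubb5* went from 624, 402, 512 and 289 to 1391, 1064, 831 and 1075 CPM and rose by 1.28 (SE 0.18, adjusted p = 1.08e-04) in 4 of 4. *Tubb6*, the lowest of the 9 outside the cycle, went from 60.03, 48.0, 51.2 and 32.8 to 135, 139.6, 185 and 186 CPM and rose by 1.58 (SE 0.21, adjusted p = 5.27e-05) in 4 of 4. That value and the 1.49 of *Tubb4b* were the highest of the 9 in tumor cells, and their difference was smaller than either SE.

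*Tubb3* stood at 301, 565, 526 and 489 CPM outside the cycle and 476, 662, 592 and 941 in it, higher in each of the 4 libraries but with overlapping ranges. Its log2 fold change of 0.50 (SE 0.17, adjusted p = 0.0829) missed the threshold, and it was called at 0.73 with the cycling threshold at 0.9% and at 0.66 without the core-marker rule. *Tubb2a* and *Tubb2b* had log2 fold changes of -0.07 (SE 0.19) and -0.14 (SE 0.16), which turned to 0.08 and 0.08 with the threshold at 0.9%. Their levels in cycling cells, 115 to 172 and 219.7 to 513 CPM, covered much the same range as outside the cycle.

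In macrophages, where 20, 15, 3 and 5 cells were cycling, 3 of 9 genes were called higher and 0 lower (9.66% of genes called, 5.32% higher and 4.34% lower). *Tuba1b* went from 241, 272, 242 and 268 CPM to 1017, 1089, 924 and 2038, *Tubb5* from 264, 261, 213 and 227 to 1228, 1504, 1395 and 1779 and *Tubb4b* from 80.9, 109, 131 and 97.6 to 375, 324, 735 and 338. In each of the 3 genes every cycling library lay above every non-cycling one. They rose by 2.06 (SE 0.18, adjusted p = 2.28e-28), 2.41 (SE 0.18, adjusted p = 3.97e-40) and 1.83 (SE 0.20, adjusted p = 1.78e-18), each in 4 of 4 libraries. *Tuba1c* was 0.49 (SE 0.20) and uncalled, and it was called at 0.67 with total UMIs. *Tubb6* stood at 126, 124, 132 and 225 CPM in cycling against 137, 134, 166 and 139 in non-cycling macrophages, with overlapping ranges and a log2 fold change of -0.12 (SE 0.22) that turned to 0.04 with total UMIs. The test found no sign of differing spread between genes here and used 1 pooled spread for all, so these p-values rest on few cells and that assumption.

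T cells had 7 of 9 genes called, 6 higher and 1 lower, where 30.2% of genes were called, 16.7% higher and 13.4% lower. *Tuba1b* went from 89.3, 131, 115 and 107 CPM to 805, 975, 1250.4 and 1153 and *Tubb5* from 184, 232, 161 and 198 to 1368, 1733, 1987 and 1988. *Tubb4b* went from 93.9, 119, 149.8 and 130.4 to 525, 652, 743 and 702 CPM. None of these ranges overlapped, and the rises were 3.22 (SE 0.10, adjusted p = 7.32e-12), 3.17 (SE 0.11, adjusted p = 1.89e-11) and 2.41 (SE 0.08, adjusted p = 1.89e-11), each in 4 of 4 libraries. *Tuba1c* rose by 1.95 (SE 0.10, adjusted p = 1.35e-09), *Tubb6* by 1.22 (SE 0.19, adjusted p = 2.23e-04) and *Tuba1a* by 0.57 (SE 0.09, adjusted p = 2.81e-04), each in 4 of 4. *Tubb3*, near background in T cells at 7.49, 16.3, 8.75 and 18.01 CPM outside the cycle and 4.07, 12.8, 1.82 and 8.14 in it, had -0.86 (SE 0.29, adjusted p = 0.0359), lower in 4 of 4 libraries, a call lost with DESeq2, with thinned cells, without the library block and without shNC library 1 (-0.85), shSELP library 1 (-0.76) or shSELP library 2 (-0.73).

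**Figure D2:**
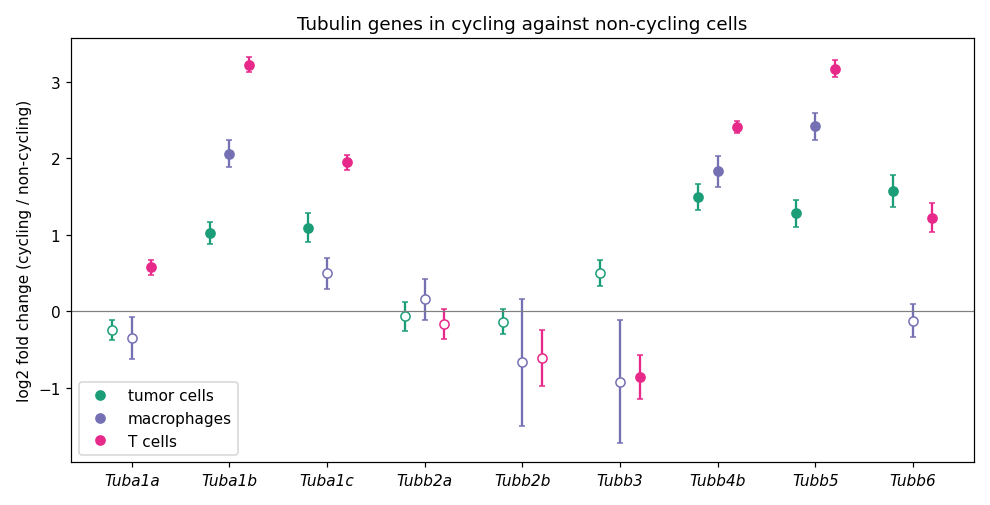
Log2 fold change of each tubulin gene between cycling and non-cycling cells of the same library in tumor cells (green), macrophages (purple) and T cells (pink), with bars of 1 SE, from 4 libraries each and filled circles for called genes. *Tuba1b*, *Tubb4b* and *Tubb5* are filled in all 3 classes, and *Tubb6* is filled in tumor cells (1.58) and T cells (1.22) but not in macrophages (-0.12, 0.04 with total UMIs).

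Whether the cycling effect differed between classes was tested as the interaction of class and state. Between tumor cells and macrophages 1 of 9 genes differed (0.591% of genes called, 0.473% higher), *Tubb6*, with 2.04 (SE 0.30, adjusted p = 4.51e-04). The 4 libraries all had more of it in cycling tumor cells, and 1 of 4 had more of it in cycling macrophages. Over all genes 40 were called higher and 10 lower with TMM, 19 and 30 with total UMIs and 28 and 40 with DESeq2. The median over all genes was 0.37 in this contrast with TMM and -0.08 with total UMIs, where *Tubb6* had 1.56, still called, and *Tuba1b* (-1.26) and *Tubb5* (-1.37) were called as well. With TMM these had -0.74 (SE 0.29) and -0.84 (SE 0.28), uncalled, and *Tuba1b* was also called without shSELP library 1 (-1.24).

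Between tumor cells and T cells 2 of 9 genes differed (0.338% of genes called, 0.145% lower), both with a smaller effect in tumor cells. *Tuba1b* had -2.05 (SE 0.20, adjusted p = 3.24e-06) and *Tubb5* -1.81 (SE 0.28, adjusted p = 0.00117), against a median of 0.12 over all genes, and both genes were higher in cycling cells in 4 of 4 libraries of either class. Without shSELP library 1 *Tubb5* had -1.54 and was no longer called. The levels show where the difference lay. In cycling cells *Tuba1b* had means of 1082 CPM in tumor cells and 1046 in T cells, while outside the cycle the means were 526 and 111. For *Tubb5* the cycling means were 1090.4 and 1769 CPM and the non-cycling means 457 and 194.

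Cycling cells were also split by phase, G2/M where the share of the 53 G2/M genes exceeded that of the 43 S genes and S otherwise, as a description without a test. *Tubb4b*, left out of the phase genes, stood at 117, 216, 434 and 159 CPM in S-phase T cells and 586, 723, 828 and 913 in G2/M T cells, so it was higher in G2/M in 4 of 4 libraries. In tumor cells it stood at 68.2, 152, 147 and 0 and 349.7, 391, 423 and 366 CPM, again higher in G2/M in 4 of 4, though the S class held only 10, 8, 1 and 2 tumor cells. *Tuba1c* in T cells had 49.6, 48.6, 93.5 and 58.3 CPM in S and 196, 231, 365 and 389 in G2/M, and *Tubb5* had means of 773 and 2025. Those were higher in G2/M in 4 of 4 libraries too, and the T cell S class held 16, 13, 8 and 22 cells. In tumor cells *Tuba1c* and *Tubb5* were higher in G2/M in 3 of 4 libraries and *Tuba1b* in 2 of 4, against 4 of 4 for *Tuba1b* in T cells. *Tubb2a* and *Tubb2b* in tumor cells and *Tubb2a* in T cells were higher in G2/M in 4 of 4 as well, so the order was not particular to the genes that rose with cycling. *Tubb6*, which did rise with cycling in T cells, was also higher in G2/M there in 4 of 4. In tumor cells, where *Tubb6* rose with cycling too, it was higher in G2/M in 2 of 4 libraries.

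*Tuba1b*, *Tubb4b* and *Tubb5* rose in the cycling cells of all 3 classes, and the promoters of the 2 with a match to the letters below are shown, while *Tuba1b* has none. They are the 250 bases before the transcript start of a promoter table from RefSeq on GRCm38.p6, and for *Tuba1a*, *Tuba1b*, *Tubb3* and *Tubb5* that start lies inside the gene as placed above. An entry was found for 7 of the 9 genes. Capitals mark matches to TTTGAA (on the other strand TTCAAA), which is the cell cycle genes homology region found in many G2/M genes, and to the CCAAT box (on the other strand ATTGG). Of 32851 mouse promoters of this length 16.0% hold TTTGAA and 33.8% hold CCAAT. The sequence of *Tubb4b* (chr2:25224703-25224952, minus strand) has 1 TTTGAA and 5 CCAAT, and that of *Tubb5* (chr17:35838302-35838551, minus strand) has 0 and 2.
Tubb4b: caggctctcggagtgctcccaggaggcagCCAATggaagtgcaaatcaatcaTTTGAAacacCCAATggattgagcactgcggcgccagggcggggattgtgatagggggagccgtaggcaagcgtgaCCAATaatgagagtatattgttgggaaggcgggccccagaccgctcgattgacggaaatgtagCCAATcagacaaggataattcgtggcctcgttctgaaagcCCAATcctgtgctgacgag
Tubb5: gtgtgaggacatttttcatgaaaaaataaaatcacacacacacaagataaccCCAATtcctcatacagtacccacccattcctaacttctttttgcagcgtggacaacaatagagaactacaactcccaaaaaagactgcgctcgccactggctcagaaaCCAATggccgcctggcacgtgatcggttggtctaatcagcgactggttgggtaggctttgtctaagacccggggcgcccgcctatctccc
The windows of *Tuba1b* and *Tubb2a* have no CCAAT, those of *Tuba1a*, *Tuba1c* and *Tubb3* have 1, and TTTGAA was found in none of these 5. TTCGAA, another form of that region, is in 1.34% of all promoters and in none of the 7, and TATAAA (other strand TTTATA), in 12.4% of all, was found only in *Tubb2a*. A match describes the letters and not a site in use.

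The hairpin comparison asked whether tumors grown from cells with the P-selectin hairpin differed from control tumors in their tubulins. In non-cycling tumor cells 0 of 9 genes were called by edgeR, 0 by DESeq2, and 0 had an unadjusted p under 0.05, and over all 9117 genes edgeR called 20 (0.219%, with 0.208% higher and 0.0110% lower), DESeq2 30, with 804 genes at an unadjusted p under 0.05. *Tuba1b* (440.1, 439, 666 and 558 CPM) and *Tuba1c* (97.2, 88.8, 124 and 101 CPM) had both shSELP libraries above both shNC libraries, 2 of 9 genes, where 41.8% of all genes had groups that did not overlap. Their log2 fold changes were 0.38 (SE 0.24, adjusted p = 0.684) and 0.20 (SE 0.24, adjusted p = 0.857). The other 7 genes overlapped between the groups, from -0.63 (SE 0.34) for *Tubb2b* to 0.27 (SE 0.28) for *Tubb4b*, and *Tuba1a*, at 0.17 (SE 0.27), turned to -0.24 without the tumor cells that carried a Y-linked UMI. The shSELP libraries had only 32 and 26 of these cells, with 507500 and 335305 UMIs against 3015281 and 2331453.

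In cycling tumor cells 0 of 9 genes and 0 of 6337 genes were called by edgeR (0%), while DESeq2 called 0 of the 9 and 21 of all, and 1076 genes had an unadjusted p under 0.05. *Tuba1c* stood at 161, 175, 325 and 291 CPM, with both shSELP libraries well above, and its log2 fold change was 0.87 (SE 0.22, adjusted p = 0.169). *Tuba1b*, at 859, 823, 1451 and 1194 CPM, had 0.65 (SE 0.21, adjusted p = 0.214). These 2 genes had unadjusted p-values from edgeR of 0.00315 and 0.0116, the only ones of the 9 under 0.05, and neither passed the correction. With *Tubb2a*, *Tubb4b* and *Tubb6* there were 5 genes with both shSELP libraries above, where 50.8% of genes had groups that did not overlap. *Tubb5*, at 1391, 1064, 831 and 1075 CPM, overlapped, with -0.38 (SE 0.24).

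In macrophages, cycling or not, 0 of 9 genes were called by edgeR or DESeq2, against 19 (0.183%, with 0.0961% higher and 0.0865% lower) and 70 of 10403 genes, and 1187 genes had an unadjusted p under 0.05. *Tubb5* stood at 312, 316, 227 and 237 CPM, lower in both shSELP libraries, with -0.37 (SE 0.09, adjusted p = 0.193) and an edgeR p of 0.00358 before correction. *Tubb2b*, at 8.06, 7.38, 2.39 and 4.88 CPM and near the free-RNA level, had -0.89 (SE 0.32, adjusted p = 0.363), and *Tuba1c*, at 167, 174, 223 and 191, had 0.33 (SE 0.11, adjusted p = 0.299) in the other direction. With 1 library left out, *Tubb2b* ranged from -1.63 to -0.59. With *Tubb6* (0.23 (SE 0.11)), 2 genes lay above and 2 below in both shSELP libraries, where 43.6% of genes did not overlap. *Tubb5* (-0.38) and *Tubb2b* (-0.89) were called without the filter on low counts. The share of macrophages that were cycling was 3.07%, 2.20%, 0.682% and 0.650%, lower in both shSELP libraries, and its part in the *Tubb5* value was not tested, although in non-cycling macrophages *Tubb5* stood at 264, 261, 213 and 227 CPM, in the same order of groups.

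In microglia 0 of 9 genes were called by edgeR or DESeq2, against 146 (1.68%, with 1.13% higher and 0.553% lower) and 122 of 8677 genes, with 1640 genes at an unadjusted p under 0.05. *Tubb2a* stood at 33.9, 35.0, 65.1 and 44.2 CPM, higher in both shSELP libraries, with 0.63 (SE 0.21, adjusted p = 0.148). With 1 library left out, *Tubb2a* ranged from 0.32 to 0.84. It was called without shSELP library 2 (0.84) and without the filter on low counts (0.63). *Tuba1a*, at 62.2, 89.8, 102 and 115 CPM, had 0.44 (SE 0.18, adjusted p = 0.220), and *Tubb5*, at 443, 475, 341 and 371 CPM, had -0.43 (SE 0.13, adjusted p = 0.122). These were the 3 genes with an unadjusted p under 0.05, and in all 3 the groups did not overlap. In total 3 genes lay above and 2 below in both shSELP libraries, where 49.5% of genes did not overlap. The share of microglia in cycle was 8.80%, 5.0%, 3.04% and 6.79%, with overlapping groups.

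In T cells 0 of 9 genes were called by edgeR or DESeq2, against 9 (0.0916%, with 0.0407% higher and 0.0509% lower) and 21 of 9823 genes, and 956 genes had an unadjusted p under 0.05. *Tubb6* stood at 46.9, 32.6, 16.4 and 31.3 CPM, lower in both shSELP libraries, and had -0.66 (SE 0.26, adjusted p = 0.431) with an edgeR p of 0.0295 before correction. With 1 library left out, *Tubb6* ranged from -1.22 to -0.36. It was called without shSELP library 2 (-1.22). *Tubb5* stood at 774, 805, 564 and 754 CPM and had -0.24 (SE 0.14, adjusted p = 0.598). Both shSELP libraries were above in 2 genes and below in 6, where 41.4% of genes did not overlap. Cycling T cells made up 31.2%, 23.9%, 12.1% and 18.4%, fewer in both shSELP libraries. Of the genes called higher in cycling T cells, *Tuba1c* lay above and the other 5 below, *Tubb2b*, which was not called there, was the sixth below, and the part of the cycling share in these values was not tested. Within non-cycling T cells *Tubb5* was 184, 232, 161 and 198 CPM and within cycling ones 1368, 1733, 1987 and 1988, overlapping in the former and higher in both shSELP libraries in the latter.

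*Selp* itself was too low in tumor cells to read the hairpin's effect. It had at most 1 UMI in the tumor cells of any library and state, and a count of 0 allows up to 0.995, 1.29 and 5.91 CPM in the 3 non-cycling libraries at 0 and up to 3.58, 13.6 and 14.3 in the 3 cycling libraries at 0 (3 counts, counting error only). In endothelial cells of the host *Selp* stood at 80.0, 62.3, 1.93 and 6.44 CPM, from 8, 12, 3 and 3 UMIs in 18, 29, 339 and 72 cells. The shNC libraries were higher there, and the difference between the hairpin groups in endothelium was not tested.

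Other genes of the tubulin family and of microtubule function were read from 4 further lists. Of the 11 other tubulins only 2 could be tested in the hairpin comparison of non-cycling tumor cells, and *Tubb4a*, the class IVa beta-tubulin of myelinating cells, was called. It stood at 4.64, 0.429, 65.0 and 71.6 CPM, high in both shSELP libraries, with 4.48 (SE 0.56, adjusted p = 0.00948). The call was lost without shSELP library 1 (4.52) or shSELP library 2 (4.47), and the value was 6.88 without shNC library 1 and 3.69 without shNC library 2. Without the 8 tumor cells that carried a Y-linked UMI it fell under the filter on low counts, and 4 genes in place of 20 were called.

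In gated oligodendrocytes (5, 20, 17 and 16 non-cycling cells) *Tubb4a* stood at 2015, 841, 1775 and 1754 CPM. Outside these cells and non-cycling tumor cells, *Tubb4a* was at most 9.55 CPM in every class and state that was read for it. The part of oligodendrocyte RNA in the tumor value was not tested.

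The other genes were read in cycling tumor cells beside the 9.07% of all genes called there (5.82% higher, 3.25% lower). Of 22 tested genes for tubulin folding and degradation 0 were called, of 18 microtubule-associated proteins 2 rose and 2 fell, of 11 enzymes that modify or sever tubulin 1 rose and 1 fell, and of 2 other tubulins 1 rose, with medians of 0.26, -0.20, -0.17 and -0.25 against -0.03 over all genes and 1.02 over the 9 genes. *Stmn1*, which binds free tubulin dimers and favors disassembly, stood at 164, 145, 116 and 104 CPM outside the cycle and 637, 477, 506 and 564 in it. It rose by 2.01 (SE 0.18, adjusted p = 5.68e-07) in 4 of 4 libraries. *Ckap5*, the second of the 2 that rose, is 1 of the 53 G2/M genes that set the cycling state, so its rise is built into the classes and its values are not read here or in the other cell classes. *Dclk1*, a doublecortin-like kinase on microtubules, went from 47.8, 107, 122 and 59.6 to 40.7, 39.4, 9.04 and 28.7 CPM and had -1.15 (SE 0.30, adjusted p = 0.0212). That call was lost without shNC library 2 (-1.09) or shSELP library 1 (-0.86), and the value was -1.76 without shNC library 1. *Sirt2*, a deacetylase of alpha-tubulin that oligodendrocytes hold at 611, 448, 1092 and 723 CPM, had 50.7, 51.0, 238 and 110.3 and 48.8, 26.2, 45.2 and 43.0 CPM and -0.97 (SE 0.27, adjusted p = 0.0354), and the value was -0.37 and uncalled without tumor cells with a Y-linked UMI. With 1 library left out it ranged from -1.52 to -0.60, and the call was lost without shNC library 2 (-1.04), shSELP library 1 or shSELP library 2 (-0.88), with DESeq2 (-1.10), with the threshold at 0.9% (-0.93) and with total UMIs (-0.96). *Tubg1*, *Mapt* and *Fignl1* were the other called genes of these lists, each under the mean of 50 CPM asked for values to be given or behind the 2 largest changes, and they are named after their values were seen.

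In T cells, where 30.2% of all genes were called (16.7% higher, 13.4% lower), cycling raised 8 and lowered 1 of the 22 tested folding genes, and raised 4 of 13 microtubule-associated proteins (*Ckap5* among them by the choice of cells), 1 of 12 enzymes and 3 of 3 other tubulins (medians 0.28, 0.19, 0.50 and 2.26). *Stmn1* went from 59.4, 60.2, 40.7 and 43.7 to 975, 1130.2, 1434 and 1415 CPM, a rise of 4.59 (SE 0.15, adjusted p = 1.86e-11) in 4 of 4 libraries. *Pfdn5*, a prefoldin subunit that passes unfolded tubulin to the chaperonin, went from 753, 688, 863 and 846 to 460.2, 495, 554 and 469.8 CPM and fell, with -0.68 (SE 0.07, adjusted p = 6.31e-06), in 4 of 4 libraries. In macrophages, where 9.66% of all genes were called (5.32% higher), 0 of 22 folding genes, 2 of 14 associated proteins (*Ckap5* again among them), 2 of 12 enzymes and 1 of 3 other tubulins rose (medians -0.04, 0.07, 0.01 and 1.15). *Stmn1* there went from 38.1, 25.2, 16.7 and 14.7 to 718, 851, 547 and 1509 CPM, a rise of 5.07 (SE 0.22, adjusted p = 1.21e-110). *Tubg1*, the gamma-tubulin that nucleates microtubules, went from 10.4, 12.3, 8.13 and 8.56 to 55.7, 53.0, 37.7 and 90.1 CPM and rose by 2.33 (SE 0.36, adjusted p = 6.60e-09), a call lost with thinned cells (2.08). Named after their values were seen, *Tuba4a*, *Tubg1*, *Tube1*, *Map7d1*, *Mapre1* and *Fignl1* also rose in T cells, and *Ttll12* and *Fignl1* in macrophages. By the test of the difference, the cycling effect on *Stmn1* was smaller in tumor cells than in macrophages (-2.75, adjusted p = 7.61e-05) and than in T cells (-2.48, adjusted p = 3.24e-06), and it too is given after its values were seen.

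Between the hairpins 0.183% of all genes were called in macrophages. Of the lists, 3 other tubulins, 22 folding genes, 16 microtubule-associated proteins and 15 enzymes were tested there. *Stmn1* was the 1 gene of these lists called. It stood at 71.5, 61.5, 22.8 and 25.2 CPM, lower in both shSELP libraries, with -1.40 (SE 0.13, adjusted p = 0.0319), and the call was lost without shSELP library 1 (-1.33) and with thinned cells (-1.10). In non-cycling macrophages it stood at 38.1, 25.2, 16.7 and 14.7 CPM, and the share of cycling macrophages given above was lower in the same libraries. In non-cycling tumor cells, where 0.219% of all genes were called, 1 of 22 microtubule-associated proteins was called, *Stmn3*, higher in shSELP, which was under the mean of 50 CPM asked of a gene for its values to be given and is named here after its values were seen. Of the folding list (22 tested) and the enzymes (12 tested) edgeR called 0 there. In cycling tumor cells, microglia and T cells 0 genes of the 4 lists were called by edgeR, where it called 0, 146 and 9 of all genes and DESeq2 21, 122 and 21.

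Between tumor cells and host 13 microtubule-associated proteins were higher and 6 lower of 23 tested against macrophages, where 68.6% of all genes were called (34.4% higher, 34.2% lower), and 18 were higher and 3 lower of 23 against T cells, where 65.5% were (34.1% and 31.4%) (medians 1.24 and 1.45 against 0.04 and 0.05 over all genes). *Dclk1* had 47.8, 107, 122 and 59.6 CPM in tumor cells and 0.303, 1.08, 0.440 and 0.713 in macrophages, higher in tumor cells by 6.03 (SE 0.27, adjusted p = 1.48e-13) in 4 of 4 libraries. *Fign*, a severing enzyme, had 47.1, 72.1, 29.6 and 62.6 CPM in tumor cells and 0.303, 0.813, 0 and 0.475 in macrophages, with 6.09 (SE 0.31, adjusted p = 1.19e-12). In T cells *Fign* had 0.576, 0, 0 and 0 CPM, from 1 UMI, and the tumor excess was 7.88 (SE 0.49, adjusted p = 2.97e-13). This excess ranged from 7.39 to 9.29 with 1 library left out. *Map1b*, a microtubule-associated protein of growing axons, had 203, 198, 175 and 197 CPM in tumor cells and 1.15, 4.67, 3.60 and 4.002 in T cells, with 5.39 (SE 0.24, adjusted p = 2.28e-16). By their means the levels of *Dclk1* and *Fign* in macrophages and of *Fign* and *Map1b* in T cells lay below the *Prph* ratio to the tumor level, so these values too are ratios to the free-RNA background. In the other direction *Tuba4a*, an alpha isotype outside the 9, had 3.32, 4.29, 13.8 and 2.98 CPM in tumor cells, 74.7, 77.5, 98.3 and 94.4 in macrophages and 57.1, 47.6, 90.1 and 74.0 in T cells, lower in tumor cells with log2 fold changes of -4.82 (SE 0.24, adjusted p = 9.06e-13) and -3.95 (SE 0.25, adjusted p = 5.04e-13). *Mapre2*, an end-binding protein, was lower than in macrophages with -1.83 (SE 0.17, adjusted p = 9.06e-09), and *Pfdn5* lower than in T cells with -1.24 (SE 0.16, adjusted p = 1.40e-07).

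Against microglia, where 60.5% of all genes were called (31.2% higher, 29.3% lower), the lists gave 12 higher and 1 lower of 22 folding genes, 12 and 7 of 23 associated proteins, 7 and 3 of 16 enzymes and 2 and 1 of 3 other tubulins. *Fign* and *Dclk1* had 0.787, 0, 0.313 and 0 and 0.787, 0.504, 0.313 and 1.11 CPM in microglia, below the tumor values above in each library, with 6.79 (SE 0.49, adjusted p = 3.35e-11) and 6.52 (SE 0.38, adjusted p = 1.05e-12), and without shSELP library 1 *Dclk1* had 5.91. By their means both lay below the *Prph* ratio there as well. *Mtus1*, a microtubule-associated protein, had 8.29, 4.72, 3.94 and 5.96 CPM in tumor cells and 55.1, 68.5, 73.0 and 58.0 in microglia, with -3.87 (SE 0.27, adjusted p = 2.91e-11). *Clip1*, a plus-end linker, had 18.2, 8.58, 5.91 and 23.9 and 66.9, 66.0, 92.5 and 85.7 CPM, with -3.01 (SE 0.26, adjusted p = 1.15e-09). Against endothelium 14 of 22 folding genes were higher and 0 lower, with 6 and 7 of 18 associated proteins (median -0.57), 4 and 2 of 9 enzymes and 1 and 0 of 2 other tubulins, where 53.3% of all genes were called (25.0% higher, 28.3% lower), and the folding genes had a median of 0.72 against -0.07 over all genes. Against T cells 6 of 22 folding genes were higher and 4 lower (median 0.09), 5 and 2 of 17 enzymes and 2 and 1 of 3 other tubulins. *Ttll7*, an enzyme that adds glutamates to beta-tubulin, had 0 UMIs in the tumor cells of all 4 libraries and 89.96, 156, 158 and 159 CPM in endothelium, and was called lower. Its fold change is not given, since a side of 0 UMIs sets no size. *Dclk1* and *Fign* stood at 0, 0, 1.29 and 0 and 0, 0, 3.22 and 10.7 CPM in endothelium (2 and 10 UMIs in all, the first below the *Prph* ratio), with 6.67 (SE 0.51, adjusted p = 5.19e-09) and 3.20 (SE 0.47, adjusted p = 1.69e-05). *Dclk1*, whose endothelial UMIs all came from shSELP library 1, ranged from 6.53 to 9.17 against endothelium with 1 library left out. *Mtus1* had 209.9, 208, 229 and 223 CPM there, with -5.09 (SE 0.30, adjusted p = 1.63e-10). Against macrophages, with the shares given above, the lists also held 9 higher and 4 lower of 22 folding genes, 8 and 2 of 18 enzymes and 3 and 1 of 5 other tubulins. The genes of the small counts, named after their values were seen, were *Tubb4a*, *Tubg1* and *Tubg2*, higher, and *Pfdn5*, *Tbcb*, *Tbce*, *Pdcl3*, *Svbp* and *Agtpbp1*, lower than in macrophages. Against microglia they were *Tubb4a* and *Tubg1*, higher, and *Tuba4a*, *Pfdn5*, *Svbp*, *Sirt2* and *Agtpbp1*, lower. Against T cells *Mapre1*, *Mapre2* and *Clip1* were the lower microtubule-associated proteins, *Vbp1*, *Pfdn5*, *Tbce* and *Tbcel* the lower folding genes, *Svbp* and *Agtpbp1* the lower and *Hdac6*, *Atat1*, *Ttll1*, *Katnal1* and *Fign* the higher enzymes, and *Tubb4a* and *Tubg1* the higher and *Tuba4a* the lower of the other tubulins. Against endothelium the enzymes were *Atat1*, *Katna1*, *Katnal1* and *Fign*, higher, and *Ttll7* and *Agtpbp1*, lower, and the other tubulin was *Tubb4a*. The calls of *Tubb4a* rest mostly on the shSELP libraries, by its tumor values above (4.64, 0.429, 65.0 and 71.6 CPM). Y-linked RNA was also higher in those libraries. The part of host RNA in these calls was not tested, and no level of tumor cells is read from them.

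Genes of like pattern were sought over the 53 class and library sums of the mix, as the 3 genes with the highest Pearson r of log2(CPM + 1) among 6790 genes, a description in which sums of a library share its depth and handling. *Tuba1b* and *Tubb5* were each other's nearest gene (r = 0.88), followed for *Tuba1b* by *Cdk1*, the mitotic kinase and like *Cks2* below a gene that sets the cycling state (0.83), and *Ccdc34* (0.79), and for *Tubb5* by *Alyref* (0.82) and *Ran* (0.82). *Tubb4b* lay nearest to *Hmgb1* (0.83), *Smc1a* (0.75) and *Ptma* (0.70), and *Tuba1c* to *Cks2* (0.76), *Clic1* (0.74) and *Tnfaip8* (0.68). *Tuba1a* was followed by *Tmod2* (0.87), *Cdc42ep1* (0.86) and *Phldb1* (0.83). *Tubb2b* lay nearest to *Laptm4b* (0.78), *Tuba1a* (0.76) and *Ckb* (0.75), *Tubb3* to *Igtp* (0.88), *Cryab* (0.86) and *Dtna* (0.86), *Tubb2a* to *Tbl1x*, *Ktn1* and *Vcp* (0.90, 0.90 and 0.89) and *Tubb6* to *Anxa5* (0.81), *Tmem109* (0.80) and *Hnrnpll* (0.79).

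The CD11b+ cells were used for levels only, with 2862 cells and 12628177 UMIs (shNC) and 2862 cells and 11445676 UMIs (shSELP). With 1 library per hairpin there is no replicate and no test, and the 95% intervals (exact, from the counts) cover counting error alone. The question was whether macrophages and microglia sorted on their own had the levels of the mix. *Tuba1a* was lower there in both hairpins, at 40.5 and 35.9 CPM in non-cycling macrophages (mean of the mix 62.6) and 31.4 and 43.5 in microglia (88.9), and so were *Tubb2b* (2.10 and 0.684 against 5.75; 7.84 and 4.35 against 16.2), *Tubb3* (1.75 and 1.71 against 7.96; 0.653 and 0.870 against 8.45) and *Tubb6* (94.8 and 94.1 against 144; 37.2 and 33.9 against 53.8). Each of these lay below all 4 libraries of the mix. *Tubb4b* lay below them in macrophages (70.8 and 76.3 against 104.6), while in microglia (45.7 and 53.9 against 68.8) 1 of the 2 did. *Tubb2a* in macrophages was near the mix (49.04 and 47.7 against 49.2). *Tuba1b* (252 and 293 against 256) and *Tubb5* (257 and 291 against 241) in macrophages lay above all 4 libraries of the mix in shSELP but not in shNC. *Tuba1c* in macrophages (164 and 178 against 186) lay within the range of the mix. So did *Tuba1b*, *Tuba1c*, *Tubb2a* and *Tubb5* in microglia. Day, sorting, library and free tumor RNA in the mix cannot be told apart in this, and the difference was not tested. In non-cycling macrophages *Tuba1b* stood at 252 CPM (239 to 266) in shNC and 293 (279 to 307) in shSELP, and *Tubb5* at 257 (244 to 270.1) and 291 (278 to 305). The intervals do not overlap for either gene, and the log2 ratios were 0.22 (0.12 to 0.32) and 0.18 (0.08 to 0.28), or 0.11 and 0.08 with TMM scaling and 0.21 and 0.08 with thinned cells. *Tubb5* in macrophages of the mix was lower in both shSELP libraries, so the order of the groups was the opposite there. For the other 7 genes in macrophages, and for all 9 in microglia, the interval of the ratio included 0, as for *Tuba1c* in macrophages (0.12, -0.01 to 0.25) and *Tuba1a* in microglia (0.47, -0.13 to 1.07). Scrublet called 1 cell of the CD11b+ table, 0.018%, and is not read as a doublet rate.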

How the data were processed

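The members and the marker and gene lists were chosen with earlier results of these data known, and the gate, the cycling threshold and the core-marker rule were set after seeing the data. The deposited values are UMI counts per gene and cell, which the authors made by aligning reads to mm10 and counting with Cell Ranger 1.3, then filtering cells and drawing equal numbers per group. Here UMIs were summed per library, class and state with Python 3.11.15, pandas 2.3.3, numpy 2.4.6 and scipy 1.17.1. Cycle genes came from Seurat 5.3.0, doublets from Scrublet in scanpy 1.11.5, and figures from matplotlib 3.10.9. R 4.3.3 tested the sums: edgeR 4.0.16 dropped genes low in counts by filterByExpr, scaled by TMM and ran quasi-likelihood F tests, with BH adjustment over every gene tested at 0.05, and the code was checked on simulated data. Levels across classes rest on sums of at least 10 cells, apart from the cycling classes.

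Alternatives were DESeq2 1.42.0, all genes kept, 1 library dropped at a time, cells thinned to 2000 UMIs, a stricter gate, doublets left out, no cell filter, a replicate or no library block, a cycling threshold of 0.9% and TMM scaling of the CD11b+ sums. Chosen after seeing the data were no core-marker rule, tumor cells with a Y-linked UMI left out, and total UMIs in place of TMM. Tumor sums held 3015281, 2331453, 507500 and 335305 UMIs outside the cycle, so 1 UMI equals 2.98 CPM in the smallest. The summed levels of 1 marker list in tumor cells are not reported here. All 9 members and *Selp* are named in the comparisons. Of the other microtubule genes, the rule names the 2 largest called changes in each direction with a mean of at least 50 CPM on either side, and of like-pattern genes the 3 nearest among those with at least 50 CPM in at least 3 sums.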

Additional observations from a re-analysis of the deposited data

Results flagged for a closer look

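The cycling effect on 3 tubulin genes differed between cell classes by a test of the difference itself. For *Tubb6* the effect in tumor cells exceeded that in macrophages by 2.04 on the log2 scale (1.56 with total UMIs, both called). The effect on *Tuba1b* in tumor cells was smaller than in T cells, with a difference of -2.05, and so was that on *Tubb5*, with -1.81, a call lost without shSELP library 1 (-1.54). Cycling macrophages numbered 20, 15, 3 and 5 cells.

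Between the hairpins 5 tubulin genes had both shSELP libraries on one side of both shNC libraries in one class and on the other side in another, where 41.8% and 50.8% of all genes in non-cycling and cycling tumor cells, 43.6% in macrophages, 49.5% in microglia and 41.4% in T cells had groups that did not overlap. These shares hold for single classes. How many of all genes lay on opposite sides in different classes was not counted, so the 5 genes are not read as a result about tubulins. The difference between classes was not tested, none of these values was called by edgeR, and the values here are log2 ratios of group means of CPM. *Tuba1a* had 0.52 in microglia and -0.18 in T cells. *Tuba1b* had 0.48 in non-cycling and 0.65 in cycling tumor cells, but -0.09 in microglia and -0.17 in T cells. For *Tubb2b* the ratio was 0.16 in microglia, -1.09 in macrophages and -0.52 in T cells, at levels near the free-RNA background in the last pair. *Tubb4b* was at 0.15 in cycling tumor cells and -0.10 in T cells. *Tubb6* was at 0.43 in cycling tumor cells and 0.18 in macrophages against -0.74 in T cells. Fewer T cells were cycling in both shSELP libraries (12.1% and 18.4% against 31.2% and 23.9%), and the part of that share in the T cell values was not tested.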

How the results depend on the processing

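The 9 genes were called or not called alike under most alternatives. Of the log2 fold changes recomputed under an alternative, 1993 kept their direction and their side of the threshold, 32 came past it, 39 were no longer past it and 81 changed sign, 42 of those outside the leaving out of a library. Counts of called tubulin genes stayed within 1.5 times in 185 cases and moved in 12, and counts of all called genes stayed in 130 and moved in 67. Values in parentheses are those of the main analysis, and where no reason is given the cause was not tested.

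With DESeq2 in place of edgeR, the calls and directions moved as follows. Calls numbered 21 in cycling tumor cells between hairpins (0 in the main analysis), 70 in macrophages between hairpins (19) and 21 in T cells between hairpins (9). Calls numbered 467 in tumor cells by cycling (719 in the main analysis), 517 in macrophages by cycling (889) and 1537 in T cells by cycling (2722). Calls numbered 60 in the interaction with T cells (35 in the main analysis). Tubulin calls numbered 3 in the interaction with macrophages (1) and 4 in the interaction with T cells (2). *Tubb2a* had -0.28 in the interaction with macrophages (0.050) and *Tubb4b* had -0.36 in the interaction with macrophages (0.0014).

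Without the filter on low counts more genes were called in 12 of 14 comparisons and fewer in T cells between hairpins (8 in place of 9) and in macrophages by cycling (878 in place of 889). Calls numbered 207 in non-cycling tumor cells between hairpins (20 in the main analysis), 249 in cycling tumor cells between hairpins (0) and 475 in macrophages between hairpins (19). Calls numbered 715 in microglia between hairpins (146 in the main analysis), 277 in the interaction with macrophages (50) and 134 in the interaction with T cells (35). Tubulin calls numbered 2 in macrophages between hairpins (0), 1 in microglia between hairpins (0) and 2 in the interaction with macrophages (1).

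With cells thinned to 2000 UMIs and shallower cells left out, fewer genes were called. Calls numbered 1 in non-cycling tumor cells between hairpins (20 in the main analysis), 3 in macrophages between hairpins (19) and 5 in microglia between hairpins (146). Calls numbered 133 in tumor cells by cycling (719 in the main analysis), 221 in macrophages by cycling (889) and 883 in T cells by cycling (2722). Calls numbered 8 in the interaction with macrophages (50 in the main analysis), 18 in the interaction with T cells (35) and 4379 in tumor cells against macrophages (8218). Calls numbered 2717 in tumor cells against microglia (6579 in the main analysis), 3851 in tumor cells against T cells (7221) and 1402 in tumor cells against endothelium (4139). *Tuba1a* had -0.057 in non-cycling tumor cells between hairpins (0.17), *Tubb2a* had -0.084 in cycling tumor cells between hairpins (0.37) and *Tuba1b* had 0.12 in macrophages between hairpins (-0.087). *Tuba1b* had 0.12 in microglia between hairpins (-0.15), *Tubb3* had -0.037 in T cells between hairpins (0.18) and *Tubb4b* had 0.012 in T cells between hairpins (-0.081). *Tubb2a* had 0.028 in tumor cells by cycling (-0.065), *Tubb2b* had 0.025 in tumor cells by cycling (-0.14) and *Tuba1c* had -0.21 in macrophages by cycling (0.49). *Tubb2a* had -2.56 in macrophages by cycling (0.15), *Tubb2a* had 0.38 in T cells by cycling (-0.17) and *Tubb4b* had -0.88 in the interaction with macrophages (0.0014). *Tubb2a* had -0.40 in the interaction with T cells (0.23), *Tubb4b* had 0.017 in tumor cells against macrophages (-0.48) and *Tubb5* had -0.27 in tumor cells against endothelium (0.041).

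Leaving out the cells called by Scrublet moved a pair of counts. Calls numbered 29 in macrophages between hairpins (19 in the main analysis) and 5 in T cells between hairpins (9).

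Without the filter on cells, a single count moved. Calls numbered 90 in microglia between hairpins (146 in the main analysis).

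With the cycling threshold at 0.9%, small values changed sign. Tubulin calls numbered 3 in the interaction with macrophages (1). *Tubb4b* had -0.021 in cycling tumor cells between hairpins (0.15), *Tubb2a* had 0.077 in tumor cells by cycling (-0.065) and *Tubb2b* had 0.081 in tumor cells by cycling (-0.14). *Tuba1a* had -0.17 in the interaction with macrophages (0.35), *Tubb2a* had -0.26 in the interaction with macrophages (0.050) and *Tubb4b* had -0.32 in the interaction with macrophages (0.0014).

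Without the library block, fewer genes were called in tumor cells by cycling. Calls numbered 349 in tumor cells by cycling (719 in the main analysis). *Tubb4b* had -0.035 in the interaction with macrophages (0.0014).

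With 1 more marker asked of each cell, a single value changed sign. *Tubb3* had -0.053 in microglia between hairpins (0.069).

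The following alternative was chosen after seeing the data and asks no core marker of tumor cells. Calls numbered 317 in non-cycling tumor cells between hairpins (20 in the main analysis) and 3 in cycling tumor cells between hairpins (0). Tubulin calls numbered 4 in the interaction with T cells (2). *Tubb3* had -0.20 in non-cycling tumor cells between hairpins (0.15), *Tubb2a* had -0.047 in the interaction with macrophages (0.050) and *Tubb4b* had -0.61 in the interaction with macrophages (0.0014). *Tubb4b* had 0.11 in tumor cells against macrophages (-0.48) and *Tubb4b* had 0.29 in tumor cells against T cells (-0.28).

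Leaving out the tumor cells with a Y-linked UMI was also chosen after seeing the data. Calls numbered 4 in non-cycling tumor cells between hairpins (20 in the main analysis). *Tuba1a* had -0.24 in non-cycling tumor cells between hairpins (0.17), *Tubb2b* had 0.024 in tumor cells by cycling (-0.14) and *Tubb5* had -0.0040 in tumor cells against macrophages (0.083). *Tubb5* had -0.082 in tumor cells against endothelium (0.041).

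Scaling by total UMIs, chosen after seeing the data too, moved calls and directions, also that of *Tubb4b* against macrophages, which was called lower with TMM. Calls numbered 39 in macrophages between hairpins (19 in the main analysis) and 253 in microglia between hairpins (146). Tubulin calls numbered 3 in the interaction with macrophages (1). *Tubb6* had 0.037 in macrophages by cycling (-0.12), *Tuba1a* had -0.12 in the interaction with macrophages (0.35) and *Tubb2a* had -0.41 in the interaction with macrophages (0.050). *Tubb4b* had -0.51 in the interaction with macrophages (0.0014), *Tubb4b* had 0.32 in tumor cells against macrophages (-0.48) and *Tubb5* had 0.39 in tumor cells against microglia (-0.18). *Tubb4b* had 0.096 in tumor cells against T cells (-0.28).

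The libraries share only a number between the hairpins, and their deviations from the group means correlated by -0.04 in non-cycling tumor cells, 0.13 in cycling tumor cells, -0.15 in macrophages, 0.09 in microglia and 0.03 in T cells. With that number as a replicate block, the counts moved both ways. Calls numbered 166 in non-cycling tumor cells between hairpins (20 in the main analysis), 16 in cycling tumor cells between hairpins (0) and 0 in macrophages between hairpins (19). Calls numbered 399 in microglia between hairpins (146 in the main analysis) and 3 in T cells between hairpins (9). *Tubb3* had -0.030 in macrophages between hairpins (0.13). *Stmn1* in macrophages had -1.39 and was not called.

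In the CD11b+ cells, where no test was made, TMM scaling gave a log2 ratio of 0.11 for *Tuba1b* (0.22) and 0.080 for *Tubb5* (0.18) in macrophages. Thinned cells gave 0.082 for *Tubb5* in macrophages too, and -1.77 for *Tubb3* in macrophages (-0.034), and in microglia 0.59 for *Tuba1c* (0.11) and 0.71 for *Tubb2a* (0.061).

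Each library was left out in turn, and with 1 library left in a group that library is assumed to vary like the other group's. The ranges below run from the lowest to the highest value. Calls ran from 2 to 159 (20), *Tuba1a* -0.076 to 0.38 (0.17), *Tuba1c* -0.021 to 0.36 (0.20) and *Tubb2a* -0.15 to 0.50 (0.23) in non-cycling tumor cells between hairpins. *Tubb3* ran from -0.24 to 0.60 (0.15) and *Tubb4b* -0.26 to 0.62 (0.27) in non-cycling tumor cells between hairpins. Calls ran from 28 to 456 (0) and *Tuba1a* -0.19 to 0.44 (0.20) in cycling tumor cells between hairpins. Calls ran from 0 to 74 (19), *Tuba1a* -0.32 to 0.038 (-0.12), *Tuba1b* -0.18 to 0.0048 (-0.087) and *Tubb2a* -0.034 to 0.19 (0.069) in macrophages between hairpins. *Tubb3* ran from -1.08 to 0.78 (0.13) and *Tubb4b* -0.032 to 0.42 (0.20) in macrophages between hairpins. Calls ran from 234 to 530 (146), tubulin calls 0 to 1 (0), *Tubb2b* -0.041 to 0.26 (0.087) and *Tubb3* -0.66 to 0.73 (0.069) in microglia between hairpins. *Tubb6* ran from -0.094 to 0.53 (0.28) in microglia between hairpins.

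Calls ran from 19 to 190 (9), tubulin calls 0 to 1 (0) and *Tubb3* -0.48 to 1.01 (0.18) in T cells between hairpins. Calls ran from 262 to 709 (719) and *Tubb2a* -0.18 to 0.050 (-0.065) in tumor cells by cycling. Calls ran from 475 to 946 (889) and *Tubb2b* -1.70 to 0.17 (-0.67) in macrophages by cycling. Calls ran from 18 to 43 (50), tubulin calls 1 to 2 (1), *Tubb2a* -0.084 to 0.0088 (0.050) and *Tubb2b* -0.054 to 1.73 (0.76) in the interaction with macrophages. *Tubb4b* ran from -0.16 to -0.012 (0.0014) in the interaction with macrophages. Calls ran from 11 to 24 (35), tubulin calls 1 to 2 (2), *Tubb2a* -0.076 to 0.47 (0.23) and *Tubb6* -0.020 to 0.82 (0.45) in the interaction with T cells. *Tubb2a* ran from -0.28 to 0.021 (-0.17) in T cells by cycling. *Tubb5* ran from -0.068 to 0.30 (0.083) in tumor cells against macrophages. *Tubb2a* ran from -0.25 to 0.032 (-0.16) and *Tubb5* -0.18 to 0.27 (0.041) in tumor cells against endothelium.

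Without the tumor cells that carry a Y-linked UMI, *Tubb4a* gave no value between hairpins, since it fell under the filter on low counts. The depth of the tumor classes was uneven, since the shSELP libraries had 32 and 26 non-cycling and 14 and 21 cycling cells, and the higher values of *Tuba1b* and *Tuba1c* in both shSELP libraries were not called. The study's methods give a pool of 3 brains per group, and whether the 2 libraries of a hairpin come from separate pools is not stated, so their spread cannot be told apart from that of repeated handling of the same cells. The classes rest on a gate set after seeing the data, and their size on the sorting and on the drawing of equal numbers of cells. Free RNA may enter the low levels of host cells, and its part was not tested apart from that of doublets. The counts stand for mRNA, and tubulin protein was not measured.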
